A study of Mus musculus with 15 samples.

Results

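Interferon response genes are genes whose transcription is switched on by interferons, and 38 of them, taken from a named list, are followed here in mouse knee joint synovium across the grades of collagen-induced arthritis (CIA). The list of genes is a biological one that uses no measured value, although it was drawn up with earlier results of these data known. The probe set of each gene was chosen by measured values, as that with the highest mean over the 15 arrays. Of the 38 genes, 36 have a probe set with a single gene symbol in the array annotation, against 18193 genes in all. A gene was tested if 3 or more of the 15 arrays gave it a signal over their 40th percentile, which held for 35 of the 36 and for 14314 of all genes. Mx2 did not pass this filter, and its signal is given without a test. The probe set of Isg15 is shared with a gene of another symbol, and none was listed for Ifi44, so no value is given for either.

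The study measured total RNA from knee joint synovium on 15 arrays, 3 for each of 5 groups: healthy naive, CIA with no swelling, CIA with mild swelling, CIA with moderate swelling and CIA with severe swelling. CIA is an arthritis raised in mice by immunizing them against type II collagen, here with 100 µg together with FCA on day 0 and the same dose again on day 21. The titles grade the same samples by joint inflammation, so the group with no swelling is also titled as having none. The naive samples carry the same treatment text, which was taken to describe the series and not these mice; strain, sex, age and day of sampling are not given in the sources used here. Nothing in the labels says that the 3 replicates of a group are separate animals, so p-values rest on a spread that could be technical only.

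Interferons act through receptors on nearly every cell. Type I interferons signal through Ifnar1 and Ifnar2 and lead to a complex that holds Stat2 and Irf9 and binds an interferon-stimulated response element (ISRE) in promoters. Type II interferon, Ifng, signals through Ifngr1 and Ifngr2 to a factor that binds a gamma-activated site (GAS). The induced genes include sensors of foreign RNA, transcription factors that carry the response on, enzymes and membrane proteins that block viruses, GTPases that attack intracellular pathogens, and chemokines. In the joint, macrophages, synovial fibroblasts, neutrophils and lymphocytes can all express such genes.

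Median signals were between 36.3 and 47.6 intensity units per array. On the first principal component over all tested genes, 1 mild array, replicate 2, lay at -7.42, against 18.7 and 36.0 for the other mild arrays, so results on the mild group are also given without it. The 3′ to 5′ signal ratio of the actin control, a measure of RNA integrity, was 0.977 ± 0.076 on naive, 1.10 ± 0.047 on no-swelling, 1.16 ± 0.032 on mild, 1.23 ± 0.039 on moderate and 1.25 ± 0.029 on severe arrays (SD, n = 3 each). That of the Gapdh control was 0.852 ± 0.032, 0.845 ± 0.041, 0.848 ± 0.008, 0.828 ± 0.020 and 0.891 ± 0.067 in the same order. The part of these ratios in the results was not tested. The dissected tissue held more than synovium: the summed signal of 6 skeletal muscle markers was 42680 to 61630 on severe and 54860 to 65750 on naive arrays, and that of 6 synovial fibroblast markers was 20320 to 29460 on severe and 5351 to 5922 on naive arrays.

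Letters matching the ISRE and the GAS were searched for in the RefSeq promoters of the genes, on build GRCm38.p6, over the 250 bases before the annotated start. The ISRE was written as GAAA, any 2 bases and GAAA, and the GAS as TTC, any 3 bases and GAA, on both strands, with overlapping matches counted. Of 29 members with a promoter in the table, 14 (48.3%) held an ISRE match, against 3.46% of all 27025 genes, and 6 (20.7%) held a GAS match, against 8.13%. The 14 were Bst2, Cxcl10, Gbp2, Gbp3, Ifit1, Ifit3, Ifitm2, Igtp, Irgm1, Isg15, Oas1a, Oas3, Rsad2 and Stat2, and the 6 were Bst2, Ifit2, Igtp, Irf1, Irf8 and Oas1a. A match is a run of letters in the window and does not show binding.

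The promoters of 6 members are shown, 5′ to 3′ on the gene's own strand with the matches in capitals, because these genes stand for different courses over the grades of swelling described below. Igtp (chr11:58199306-58199555, + strand) was the only member called in joints without swelling and holds a GAS match followed by an ISRE match. Irf1 (chr11:53769764-53770013, + strand) holds a GAS match alone. Ifitm2 (chr7:140955962-140956211, - strand) was among those called at mild swelling and holds an ISRE match. Ifit1 (chr19:34640639-34640888, + strand) holds ISRE matches at 2 places, which read TTTC, 2 bases and TTTC because they lie on the other strand. Gbp2 (chr3:142620413-142620662, + strand) and Cxcl10 (chr5:92348890-92349139, - strand) hold an ISRE match each, and both were called from moderate swelling.
Igtp: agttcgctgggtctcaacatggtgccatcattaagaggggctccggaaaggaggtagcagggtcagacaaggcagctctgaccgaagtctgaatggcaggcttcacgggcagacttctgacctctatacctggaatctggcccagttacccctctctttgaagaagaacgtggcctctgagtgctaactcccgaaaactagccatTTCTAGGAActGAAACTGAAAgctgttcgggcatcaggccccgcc
Irf1: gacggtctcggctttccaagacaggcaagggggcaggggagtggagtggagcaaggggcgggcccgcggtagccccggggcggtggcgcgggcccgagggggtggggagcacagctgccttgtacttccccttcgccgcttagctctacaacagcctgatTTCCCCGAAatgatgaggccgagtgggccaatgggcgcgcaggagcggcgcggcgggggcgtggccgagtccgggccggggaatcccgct
Ifitm2: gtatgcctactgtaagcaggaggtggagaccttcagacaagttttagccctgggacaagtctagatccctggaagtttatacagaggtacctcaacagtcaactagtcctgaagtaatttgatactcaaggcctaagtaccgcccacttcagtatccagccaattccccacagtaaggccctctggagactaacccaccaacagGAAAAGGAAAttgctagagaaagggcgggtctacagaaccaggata
Ifit1: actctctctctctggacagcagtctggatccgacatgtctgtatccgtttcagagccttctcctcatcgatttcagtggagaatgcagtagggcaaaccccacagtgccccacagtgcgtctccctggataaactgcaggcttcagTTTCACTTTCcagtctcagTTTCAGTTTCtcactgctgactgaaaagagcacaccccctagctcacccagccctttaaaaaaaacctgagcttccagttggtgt
Gbp2: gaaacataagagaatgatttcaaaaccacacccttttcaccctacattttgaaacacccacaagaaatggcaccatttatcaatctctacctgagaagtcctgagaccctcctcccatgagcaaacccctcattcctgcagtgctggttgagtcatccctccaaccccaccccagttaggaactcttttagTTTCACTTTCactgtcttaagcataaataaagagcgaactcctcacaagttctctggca
Cxcl10: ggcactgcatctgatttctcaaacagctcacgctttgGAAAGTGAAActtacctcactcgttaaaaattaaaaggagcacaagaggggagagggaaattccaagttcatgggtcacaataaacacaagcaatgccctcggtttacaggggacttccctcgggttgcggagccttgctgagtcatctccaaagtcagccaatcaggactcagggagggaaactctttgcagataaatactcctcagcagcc

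Across the grades, the interferon response genes were close to the naive level in joints without swelling, higher for some members at mild swelling, and higher for most at moderate and severe swelling. A gene is called here when limma's moderated test gives a Benjamini-Hochberg adjusted p under 0.05 over all genes tested; values are on the log2(signal + 16) scale, on which changes of dim genes are understated. In no swelling against naive, 1 of the 35 tested members was called higher, Igtp, beside 1.52% of all tested genes. In mild against naive 9 were called higher, beside 23.1% of all genes. In moderate against naive 30 were called higher, beside 30.9% of all genes, and in severe against naive 27, beside 32.3%. None was called lower in these comparisons, where 1.76%, 17.0%, 23.8% and 22.9% of all genes were, in the same order of grade; at an unadjusted p under 0.05 the members lower were 1, 1, 0 and 0. Under some other settings Gbp6 was called lower in mild and in severe against naive, and Oas2 in mild against naive with array weights (-0.38, adjusted p = 0.0161). The count of 9 called at mild swelling, about the same share as the background, is thus by itself no result about the list. The shares at moderate and severe swelling were well above the background. The calls there include Cxcl9 and Oas3, which passed the signal filter only through moderate and severe arrays.

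**Figure D1:**
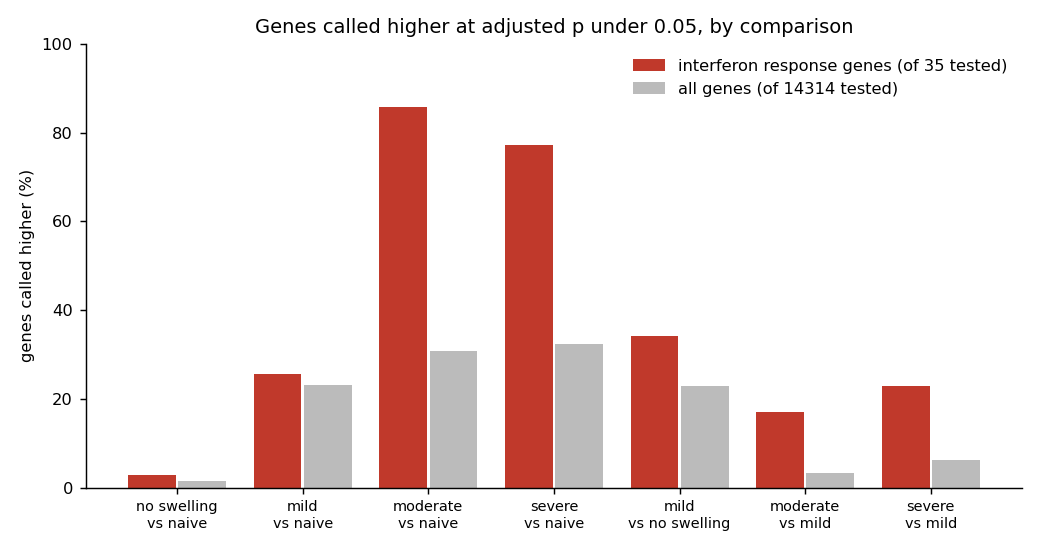
The y axis gives the percentage of genes called higher at an adjusted p under 0.05 in each comparison on the x axis, for the 35 tested interferon response genes (red) and all 14314 tested genes (grey). The red bars stand far above the grey ones for moderate (30 of 35, against 30.9%) and severe swelling against naive (27 of 35, against 32.3%), and near them for mild against naive (9 of 35, against 23.1%).

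The median log2 difference from naive over the 36 measured members, called or not, was -0.07 in no swelling, 0.40 in mild, 1.11 in moderate and 1.03 in severe swelling, against -0.02, 0.01, -0.01 and 0.06 over all 18193 genes. In moderate and in severe swelling 34 of the 36 lay above the naive mean, beside 49.5% and 54.6% of all genes. At mild swelling 33 did, beside 50.6% of all genes, and without swelling 13, beside 47.4%. All arrays lay above all naive arrays for 3 members in no swelling, 10 in mild, 31 in moderate and 30 in severe swelling. This held for 13.0%, 29.1%, 35.1% and 36.1% of all tested genes. All arrays lay below all naive arrays for 3, 1, 0 and 1 members, beside 14.1%, 24.6%, 28.6% and 26.1% of all tested genes. By the mean of the group, 17 of the 35 tested members were highest in severe, 15 in moderate and 2 in mild swelling, and 1, Gbp6, in naive joints. Without mild replicate 2, 15 instead of 9 members were called in mild against naive, the others being Irf9, Ifit1, Gbp2, Cxcl10, Parp9 and Xaf1. The share of all genes called without that array is not set beside this count, which is by itself no result about the list. Leaving out any 1 array left 26 to 30 members called in moderate and 24 to 28 in severe against naive.

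The cell composition changed alongside. In severe against naive 10 of 11 macrophage and monocyte markers were called higher, with a summed signal of 8251 to 10650 on severe and 1928 to 2147 on naive arrays. Of 6 neutrophil markers 5 were called higher (summed signal 9001 to 12810 on severe, 150.1 to 209.2 on naive arrays), and 6 of 6 synovial fibroblast markers were. Of 7 tested T and NK cell markers 3 were higher, Cd3g, Cd5 and Cd4, with Cd3d and Gzmb below the signal filter, and the summed signal of the 9 measured was 261.3 to 384.5 on severe and 184.5 to 250.4 on naive arrays. The summed signal of the 5 plasmacytoid dendritic cell markers was 959.2 to 1074 on severe and 748.1 to 800.7 on naive arrays, with Tcf4 called higher, Ly6d called lower and Ccr9 below the filter. The 3 adipocyte markers were called lower (summed signal 1548 to 2596 on severe, 7918 to 9800 on naive arrays), as were 2 of 6 skeletal muscle markers in severe and 5 of 6 in moderate against naive. In whole tissue, more cells of a type and more RNA per cell cannot be told apart; the part of these markers in the interferon response genes was not tested.

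**Figure D2:**
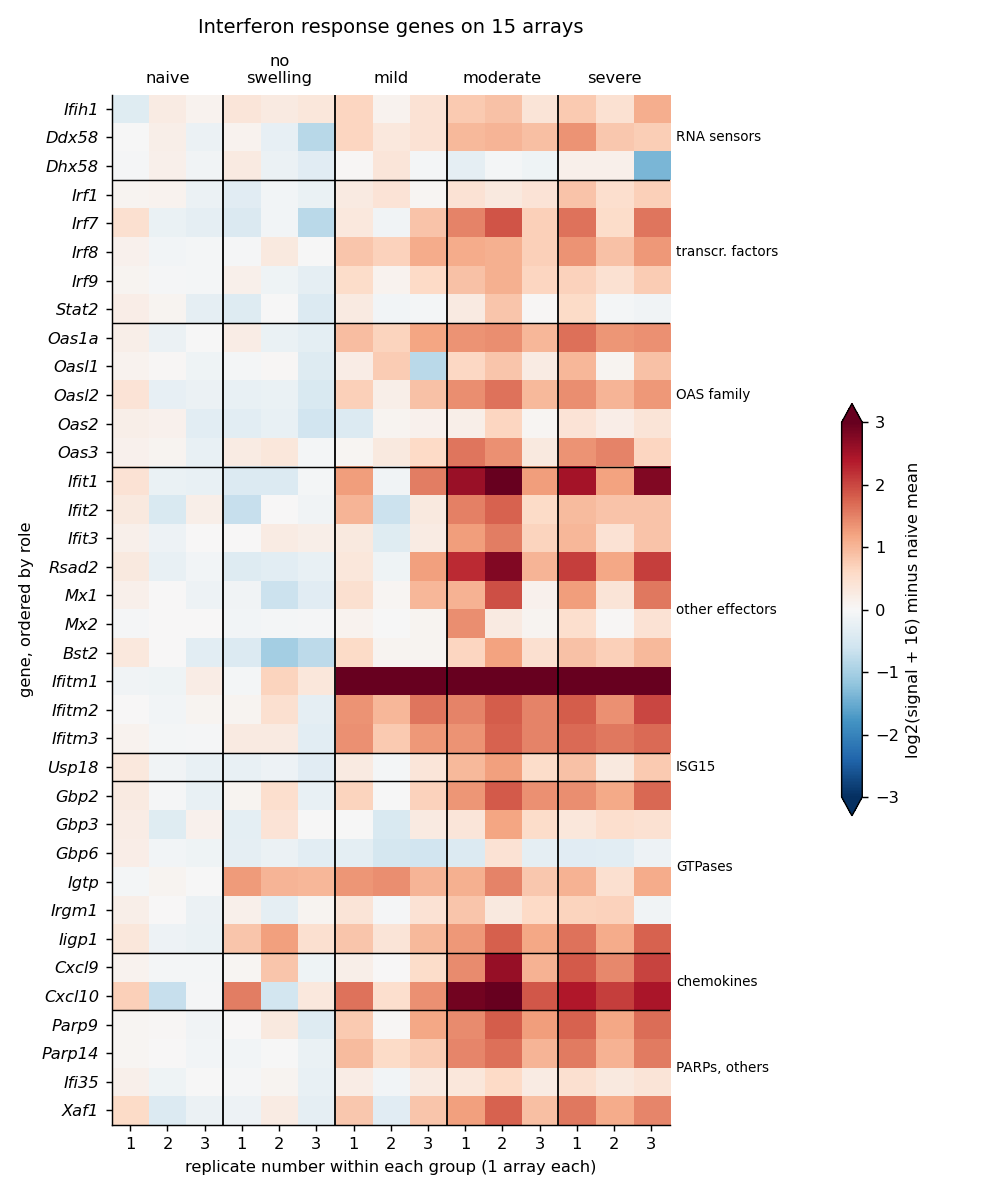
Each row is 1 of the 36 measured interferon response genes, grouped by role, and each column 1 of the 15 arrays in the order naive, no swelling, mild, moderate and severe. Colour gives log2(signal + 16) minus the gene's naive mean, clipped at -3 and 3: most rows are red in the moderate and severe columns, Ifitm1 is already dark red in the mild columns, and Igtp is red from the no-swelling columns on.

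Among the GTPases, Igtp (an immunity-related GTPase of the vacuole-attacking family, also called Irgm3) was the only member called in joints without swelling. Its signal was 187, 208 and 194 on the naive, 497, 415 and 410.4 on the no-swelling, 519, 539.8 and 415 on the mild, 430.1, 583 and 353 on the moderate and 418, 282 and 440.2 on the severe arrays. The 3 arrays without swelling all lay above the 3 naive arrays, at about the level of the mild and moderate ones. The rise in no swelling against naive was 1.10 ± 0.18 on the log2 scale (SE, adjusted p = 0.00503). It was 0.88 ± 0.18 on the log2 scale (SE, adjusted p = 0.000797), in severe against naive. Scaled on the hybridization controls instead, the early difference of Igtp was 0.95 and its adjusted p 0.383, so the call depends on the scaling. It was called with any 1 array left out.

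Iigp1, another immunity-related GTPase, had 211, 143 and 140.4 on the naive, 301, 402 and 231 on the no-swelling, 303, 218 and 335 on the mild, 423, 598 and 379.5 on the moderate and 535, 366 and 587 on the severe arrays. All no-swelling arrays lay above the naive arrays here too, as they did for 13.0% of all tested genes. The difference of 0.85 ± 0.24 on the log2 scale (SE, adjusted p = 0.0652) was not called. Without no-swelling replicate 3, mild replicate 2 or severe replicate 2 it passed, with adjusted p-values of 0.0472, 0.0444 and 0.047, as it did with aligned medians, the mean of probe sets and array weights (0.0411, 0.036 and 0.0257). The other probe set of Iigp1 was called in this comparison (1.12, adjusted p = 0.0195). In moderate against naive Iigp1 rose by 1.41 ± 0.24 on the log2 scale (SE, adjusted p = 0.000112). Its call in mild against naive (adjusted p = 0.0214) was lost without mild replicate 1 or 3 or naive replicate 2 or 3 (adjusted p = 0.0689, 0.0917, 0.0743 and 0.0835). In no swelling against naive 2 of 11 macrophage markers, Ccr2 and Mpeg1, were also called higher, beside 1.52% of all genes. So were 3 of 6 neutrophil markers, S100a8, S100a9 and Csf3r. The summed neutrophil signal was 421.7 to 3064 on no-swelling and 150.1 to 209.2 on naive arrays. The part of these markers in the early values of Igtp and Iigp1 was not tested.

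The guanylate-binding proteins followed other courses. Gbp2, which coats and breaks open pathogen vacuoles, had 98.1, 76.8 and 65.1 on the naive, 84.6, 118 and 64.9 on the no-swelling, 134, 78.7 and 137 on the mild, 220.2, 326 and 229 on the moderate and 234, 192 and 299.8 on the severe arrays. The moderate and severe arrays all lay above the other 9, which overlapped with each other. Gbp2 rose by 1.42 ± 0.23 on the log2 scale (SE, adjusted p = 9.51e-05), in severe against naive, and by 1.51 ± 0.23 on the log2 scale (SE, adjusted p = 5.58e-05), in moderate against naive. Gbp3 averaged 224 ± 75.4 in moderate and 129 ± 29.7 in naive joints, a call (adjusted p = 0.0211) lost without moderate replicate 2 or naive replicate 2 (0.124 and 0.106). Irgm1, a regulator of the other immunity-related GTPases, was called in moderate against naive alone (0.57 ± 0.21 on the log2 scale (SE, adjusted p = 0.0313)), and not without moderate replicate 1 or 3 or naive replicate 2 or 3 (adjusted p = 0.131, 0.0698, 0.0658 and 0.111). Gbp6 averaged 123 ± 9.73 in severe and 152 ± 20.7 in naive joints and was called in no comparison with the settings used. Its lowest difference was in mild against naive (-0.47, adjusted p = 0.0534), which was called lower with 6 of the other settings (adjusted p = 0.00865 to 0.0447) and without moderate replicate 1 or 2 (0.0407 and 0.012), and its other probe set was called lower there (-0.78, adjusted p = 0.0071). In severe against naive Gbp6 was called lower with quantile normalization and with aligned medians (adjusted p = 0.0476 and 0.028). Of the 6 GTPases, 3 were called higher in severe and 5 in moderate against naive, beside 32.3% and 30.9% of all genes. Genes of these families have close copies in the mouse genome, and how far their probe sets tell them apart was not tested.

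The interferon-induced transmembrane proteins, which hinder the entry of enveloped viruses, were already high at mild swelling, and Ifitm1 gave the largest change of the list in mild, moderate and severe against naive. Ifitm1 had 46.5, 45 and 61.9 on the naive, 48.6, 89.6 and 68.6 on the no-swelling, 536, 509.8 and 914 on the mild, 1025, 1003 and 552 on the moderate and 1034, 786 and 1043 on the severe arrays. All 9 arrays of swollen joints lay above all 6 arrays of naive and unswollen joints, by several fold. The log2 fold change of Ifitm1 was 3.28 ± 0.26 (SE, adjusted p = 4.33e-07), in mild and 3.85 ± 0.26 (SE, adjusted p = 5.57e-08), in severe against naive. Ifitm2 rose by 1.74 ± 0.20 on the log2 scale (SE, adjusted p = 3.66e-06), in severe against naive, with means of 4096 ± 904 in severe and 1199 ± 71.9 in naive joints. Ifitm3 rose by 1.66 ± 0.18 on the log2 scale (SE, adjusted p = 1.78e-06), with means of 4932 ± 224 in severe and 1547 ± 107 in naive joints. For both, no array of a swollen joint overlapped with the naive arrays. Of the difference between moderate and naive, 89.5% was present at mild swelling for Ifitm1, 82.6% for Ifitm2 and 74.7% for Ifitm3, read on the log2 scale. Without mild replicate 2 the mild differences of these genes were 3.43, 1.49 and 1.33, instead of 3.28, 1.325 and 1.15.

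On all arrays, the other tested antiviral effectors were first called against naive at moderate swelling. Ifit1, which binds viral RNA that lacks the host's cap methylation, had 98.3, 57.9 and 57 on the naive, 47.6, 47.8 and 65.5 on the no-swelling, 186, 62.5 and 230.1 on the mild, 498, 797 and 188 on the moderate and 465, 180.1 and 569.8 on the severe arrays. The mild arrays spread widely, with replicate 2 at the naive level, and all moderate and severe arrays lay above the naive ones. Ifit1 rose by 2.37 ± 0.49 on the log2 scale (SE, adjusted p = 0.000698), in moderate and by 2.16 ± 0.49 on the log2 scale (SE, adjusted p = 0.00144), in severe against naive, and its difference in mild against naive was not called on all arrays, but was without mild replicate 2 (1.39, adjusted p = 0.0296), with scaling on the hybridization controls (1.43, adjusted p = 0.000202) and with array weights (1.24, adjusted p = 0.000862). Rsad2, or viperin, which makes a chain-terminating nucleotide, had 97.9, 64.3 and 72.5 on the naive, 55, 58.6 and 64 on the no-swelling, 102, 69.2 and 204 on the mild, 425, 626 and 172 on the moderate and 374, 192 and 377 on the severe arrays. Its moderate and severe arrays lay above all naive arrays, and mild replicate 3 lay above the lowest moderate and severe arrays. Rsad2 rose by 2.01 ± 0.39 on the log2 scale (SE, adjusted p = 0.000411), in moderate against naive.

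Ifit2 and Ifit3, partners of Ifit1, rose by 1.28 and 1.16 on the log2 scale in moderate against naive. At mild swelling 17.5% and 5.2% of these differences were present, against 37.4% for Ifit1 and 24.0% for Rsad2. Without mild replicate 2 the mild differences of Ifit2, Ifit3, Ifit1 and Rsad2 from naive were 0.66, 0.27, 1.39 and 0.79. On all arrays they were 0.23, 0.06, 0.89 and 0.48, so these shares depend on that array. Ifit2 was not called in severe against naive (adjusted p = 0.0527). Bst2, or tetherin, which holds budding virus at the cell surface, averaged 72.6 ± 19.3 in naive, 37.2 ± 11.6 in no-swelling and 142 ± 13 in severe joints. It was called higher in severe against naive (adjusted p = 0.00402), and in moderate against naive (adjusted p = 0.00792), though not without moderate replicate 2 (0.0523).

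Mx1, a GTPase that blocks influenza virus in mice, averaged 73.4 ± 34.1 in severe and 24.1 ± 4.3 in naive joints. Its calls in moderate and severe against naive (adjusted p = 0.033 and 0.0267) were among the weakest of the list. The moderate call was lost without moderate replicate 1 or 2 or any naive array (adjusted p = 0.0511 to 0.197), and the severe call without severe replicate 1 or 3 or naive replicate 2 or 3 (0.0561 to 0.119). Mx2 had signals of 2.8, 3.4 and 3.3 on the naive, 2.2, 2.4 and 2.8 on the no-swelling, 4.6, 3.1 and 4.4 on the mild, 34.1, 7.1 and 4.4 on the moderate and 11, 3.6 and 9.7 on the severe arrays. Only moderate replicate 1 was clearly above the rest, at a level where the array measures little. Of the 10 antiviral effectors, 9 were tested. Of these, 9 were called higher in moderate, 8 in severe and 3 in mild against naive, beside 30.9%, 32.3% and 23.1% of all genes.

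**Figure D3:**
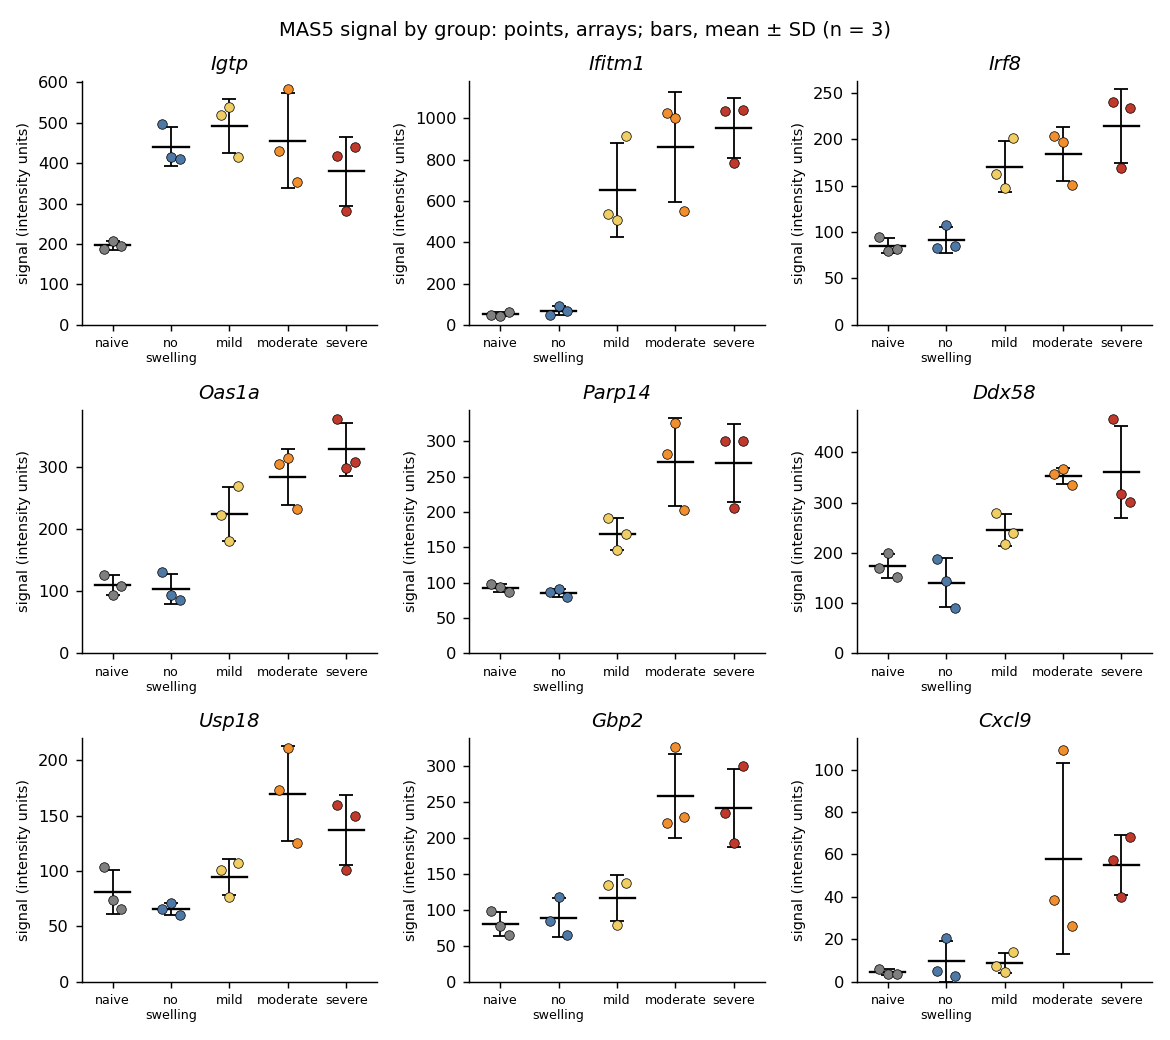
Each panel gives the MAS5 signal (y axis, intensity units, from 0) of 1 gene on the 15 arrays by group (x axis, naive to severe); points are arrays and bars the mean ± SD of 3. Igtp steps up between naive (196 ± 10.8) and no swelling (441 ± 48.4), Ifitm1, Irf8, Oas1a and Parp14 at mild swelling, and Usp18, Gbp2 and Cxcl9 at moderate swelling.

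Usp18, which removes the ubiquitin-like protein Isg15 from its targets and dampens signalling from the type I receptor, had 104, 74 and 66.1 on the naive, 65.8, 70.7 and 60.5 on the no-swelling, 101, 76.2 and 107 on the mild, 173, 211 and 125 on the moderate and 159.8, 101 and 150.1 on the severe arrays. The moderate arrays all lay above the naive ones, while severe replicate 2 lay within the naive range. Usp18 rose by 0.92 ± 0.21 on the log2 scale (SE, adjusted p = 0.00124), in moderate against naive. The rise in severe against naive was 0.65 ± 0.21 on the log2 scale (SE, adjusted p = 0.0138), and was not called without severe replicate 1, severe replicate 3 or naive replicate 3 (adjusted p = 0.0657, 0.0526 and 0.0655).

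Among the RNA sensors, Ddx58 (RIG-I) had 170.0, 199 and 152 on the naive, 188, 143 and 90 on the no-swelling, 279.5, 218 and 239.7 on the mild, 356, 366 and 336 on the moderate and 467, 316 and 301 on the severe arrays. The moderate and severe arrays all lay above the other 9, and the mild arrays lay between them and the naive arrays. Ddx58 rose by 0.97 ± 0.21 on the log2 scale (SE, adjusted p = 0.0009), in severe and by 0.96 ± 0.21 on the log2 scale (SE, adjusted p = 0.000978), in moderate against naive. Ifih1 (MDA5) averaged 145 ± 34.4 in severe and 78.3 ± 19.8 in naive joints, and rose by 0.77 ± 0.20 on the log2 scale (SE, adjusted p = 0.00429); its moderate call was lost without naive replicate 1 (adjusted p = 0.0602). Dhx58 (LGP2), which tunes the other sensors, averaged 32.9 ± 23.7 in severe and 40.2 ± 4.93 in naive joints on the probe set used, a difference that was not called. Another probe set of Dhx58 was 1.59 higher in severe against naive (adjusted p = 0.000888).

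Of the transcription factors, Irf8, which also directs macrophage and dendritic cell development, moved earliest. Its signal was 94.3, 79.9 and 81.4 on the naive, 82.4, 108 and 84.5 on the no-swelling, 163, 147 and 202 on the mild, 204, 197 and 150.5 on the moderate and 241, 169 and 234 on the severe arrays. The arrays of swollen joints all lay above those of naive and unswollen joints. Irf8 rose by 0.88 ± 0.17 on the log2 scale (SE, adjusted p = 0.000724), in mild and by 1.18 ± 0.17 on the log2 scale (SE, adjusted p = 2.36e-05), in severe against naive, and 89.9% of its difference between moderate and naive was present at mild swelling. Irf7, the main amplifier of type I interferon production, averaged 89.7 ± 31.7 in naive, 121 ± 46.8 in mild and 263 ± 105 in moderate joints, and 25.9% of its difference was present at mild swelling. Without mild replicate 2 the mild differences of Irf8 and Irf7 from naive were 0.97 and 0.59, instead of 0.88 and 0.35. Irf7 rose by 1.37 ± 0.35 on the log2 scale (SE, adjusted p = 0.00329), in moderate against naive.

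Irf9, the DNA-binding part of the complex at the ISRE, rose by 0.86 ± 0.16 on the log2 scale (SE, adjusted p = 0.000361), in moderate against naive. Irf1, an activator downstream of Ifng, averaged 687 ± 86 in severe and 418 ± 46.6 in naive joints. It rose by 0.69 ± 0.13 on the log2 scale (SE, adjusted p = 0.000311), in severe against naive, and its moderate call (adjusted p = 0.0215) was lost without moderate replicate 1 or 3 or naive replicate 3 (0.0666, 0.056 and 0.111). Stat2, the partner of Irf9, averaged 85 ± 27.4 in severe and 74.4 ± 14.7 in naive joints on the probe set used, without a call, while another of its probe sets was 1.87 higher in severe against naive (adjusted p = 9.64e-05). Of the 5 transcription factors, 4 were called higher in severe and in moderate against naive, beside 32.3% and 30.9% of all genes, and Stat2 was not.

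The OAS enzymes make oligoadenylates that switch on the nuclease RNase L. Oas1a had 126, 94.2 and 109 on the naive, 129.9, 93.7 and 85.2 on the no-swelling, 222, 181 and 269 on the mild, 304, 314 and 232 on the moderate and 377, 298 and 308 on the severe arrays. No array of a swollen joint overlapped with the naive or no-swelling arrays. Oas1a rose by 0.92 ± 0.18 on the log2 scale (SE, adjusted p = 0.000784), in mild and by 1.45 ± 0.18 on the log2 scale (SE, adjusted p = 5.93e-06), in severe against naive. Oasl2 rose by 1.24 ± 0.22 on the log2 scale (SE, adjusted p = 0.000182), in severe against naive; its call at mild swelling (adjusted p = 0.0446) was lost when any of 9 arrays was left out (adjusted p = 0.0501 to 0.182). Those arrays were mild replicates 1 and 3, moderate replicate 1, severe replicates 1 and 3, no-swelling replicates 1 and 2, and naive replicates 2 and 3.

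Oas3, a dim gene here, averaged 48.5 ± 18.8 in severe and 12.1 ± 3.56 in naive joints, and its call in moderate against naive (adjusted p = 0.00847) was lost without moderate replicate 1 (0.055). Oas3 passed the signal filter only through moderate and severe arrays, so its calls there are not independent of the filter. Oas2 averaged 138 ± 11.9 in severe and 107 ± 21.7 in naive joints, and Oasl1 averaged 100.5 ± 35.9 in severe and 55.8 ± 5.79 in naive joints; neither was called in any comparison. Of the 5 OAS genes, 3 were called higher in severe, 3 in moderate and 2 in mild against naive, beside 32.3%, 30.9% and 23.1% of all genes.

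Cxcl9 and Cxcl10 are chemokines that draw T cells and NK cells through the receptor Cxcr3. Cxcl9 had 6.1, 3.7 and 3.8 on the naive, 5.2, 20.7 and 2.9 on the no-swelling, 7.2, 4.8 and 13.9 on the mild, 38.4, 109 and 26.4 on the moderate and 57.2, 40.1 and 68.1 on the severe arrays. It was near the bottom of the scale in naive, unswollen and mildly swollen joints, except for no-swelling replicate 2, and above all of these on every moderate and severe array. It passed the signal filter only through moderate and severe arrays, so its calls there are not independent of the filter. Cxcl9 rose by 1.77 ± 0.35 on the log2 scale (SE, adjusted p = 0.000497), in severe and by 1.69 ± 0.35 on the log2 scale (SE, adjusted p = 0.000768), in moderate against naive. Cxcl10 had 34.7, 3.1 and 13.8 on the naive, 73.5, 4.8 and 22 on the no-swelling, 78.7, 27.6 and 63.2 on the mild, 213, 254 and 95.5 on the moderate and 146, 113 and 151 on the severe arrays. The moderate and severe arrays lay above all others, and the naive and no-swelling arrays spread widely. Cxcl10 rose by 2.63 ± 0.48 on the log2 scale (SE, adjusted p = 0.000214), in moderate and by 2.31 ± 0.48 on the log2 scale (SE, adjusted p = 0.000662), in severe against naive. Its difference in mild against naive was not called on all arrays, but was without mild replicate 2 (1.50, adjusted p = 0.0277), naive replicate 1 (0.0306) or no-swelling replicate 1 or 2 (0.0299 and 0.0364), and with 4 of the other settings (1.8e-05 to 0.0484).

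Parp14, an ADP-ribosyltransferase, had 97.5, 93.2 and 86.5 on the naive, 86.9, 90.7 and 79.1 on the no-swelling, 192, 146 and 169 on the mild, 282, 326 and 203 on the moderate and 301, 206 and 301 on the severe arrays. The groups were ordered without overlap between naive, mild and the 2 higher grades, and the no-swelling arrays lay within or just below the naive range. Parp14 rose by 0.77 ± 0.17 on the log2 scale (SE, adjusted p = 0.00258), in mild and by 1.38 ± 0.17 on the log2 scale (SE, adjusted p = 7.89e-06), in severe against naive. Parp9, which acts with the ubiquitin ligase Dtx3l, averaged 294 ± 65.8 in severe and 89.3 ± 6.7 in naive joints and rose by 1.54 ± 0.26 on the log2 scale (SE, adjusted p = 9.77e-05). Xaf1, an antagonist of the cell death inhibitor XIAP, rose by 1.39 ± 0.31 on the log2 scale (SE, adjusted p = 0.00123). Ifi35, a partner of Nmi, averaged 966 ± 61.4 in severe and 735 ± 69.5 in naive joints (adjusted p = 0.0205); that call was lost without severe replicate 1 or naive replicate 2 or 3 (0.0722, 0.0846 and 0.057), and its moderate call (adjusted p = 0.0182) without moderate replicate 2 or naive replicate 2 or 3 (0.0936, 0.0769 and 0.0521).

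Steps of swelling were also compared directly, mild against none and moderate or severe against mild; the comparison of moderate with mild was added after the data were seen. In mild against no swelling 12 of 35 members were called higher and 0 lower, beside 23.0% and 15.6% of all genes (0 members lower at an unadjusted p under 0.05). They were Ddx58, Irf1, Irf8, Irf9, Oas1a, Oasl2, Bst2, Ifitm1, Ifitm2, Ifitm3, Parp9 and Parp14, led by Ifitm1 with 2.96 ± 0.26 (SE, adjusted p = 1.16e-05). For Bst2, as for 14.1% of all tested genes, the no-swelling arrays all lay below the naive ones, at signals of 27.3 to 50.0 against 53.9 to 92.4. Its difference in mild against naive was 0.24 and was not called. Without mild replicate 2, 18 members were called, a count given without the share of all genes in that setting. The call of Irf1 was lost without no-swelling replicate 1 (adjusted p = 0.058), and that of Irf9 without mild replicate 1 or 3 or no-swelling replicate 2 or 3 (0.066 to 0.116). That of Parp9 was lost without mild replicate 1 or 3, moderate replicate 1, severe replicate 3, no-swelling replicate 1 or 3, or any naive array (0.051 to 0.217). In the same comparison 10 of 11 macrophage markers and 5 of 6 neutrophil markers were called higher.

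**Figure D4:**
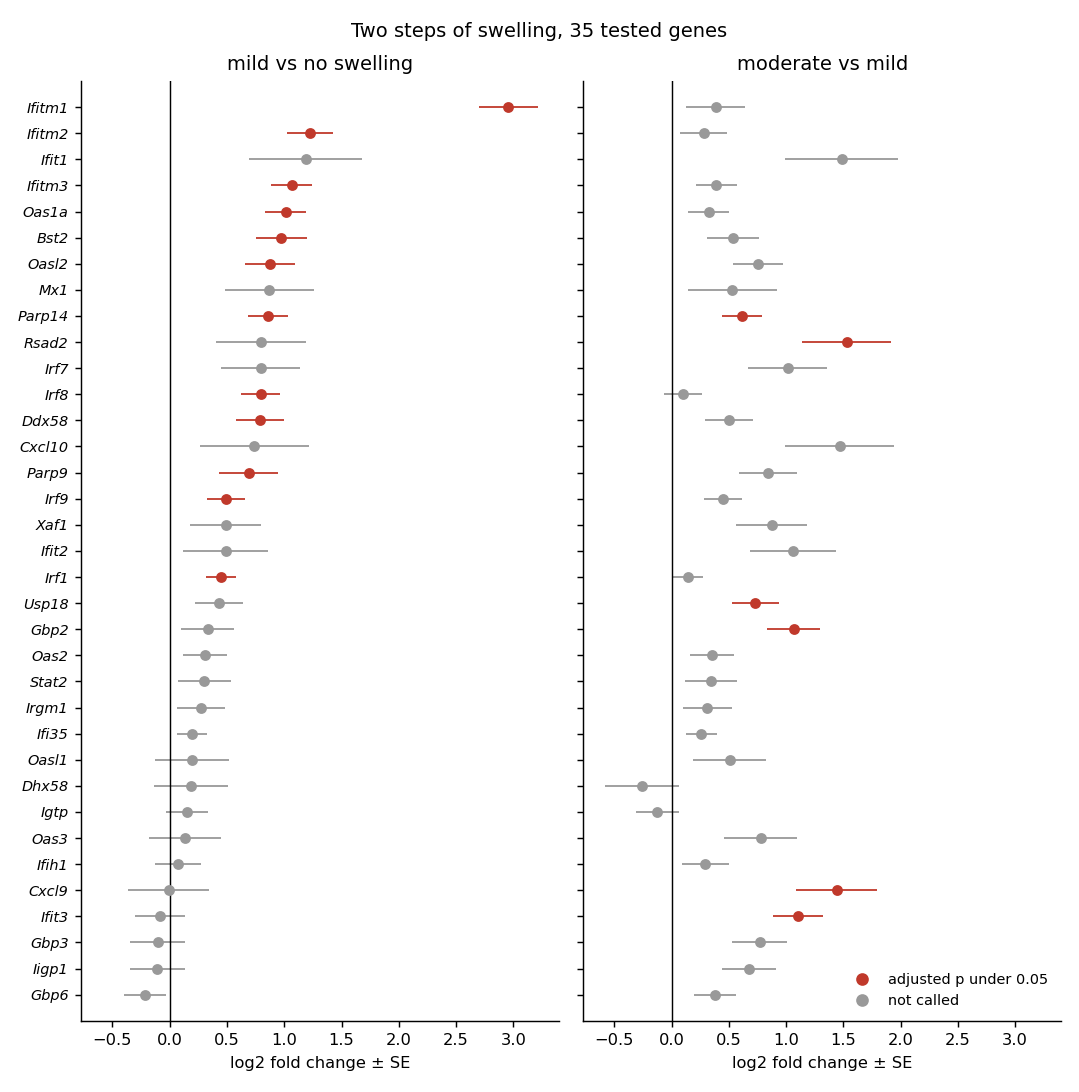
The left panel gives the log2 fold change ± SE (x axis) of each of the 35 tested genes in mild against no swelling and the right panel in moderate against mild, with genes in the same order and red for an adjusted p under 0.05. The IFITM genes, Oas1a and Irf8 are red on the left and near 0.1 to 0.4 on the right, while Rsad2, Cxcl9, Ifit3 and Gbp2 are red on the right with values above 1.

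In moderate against mild 6 members were called higher and 0 lower, beside 3.3% and 3.43% of all genes (0 members lower at an unadjusted p under 0.05). They were Rsad2 (1.53 ± 0.39 (SE, adjusted p = 0.0306)), Cxcl9 (1.44), Ifit3 (1.10), Gbp2 (1.06), Usp18 (0.73) and Parp14 (0.61). None of the 11 macrophage markers was called in either direction (none passed an unadjusted p under 0.05 either), and 1 of 6 neutrophil markers, Mmp9, was higher. So were 1 of 6 synovial fibroblast, 1 of 5 endothelial and 1 of 4 tested plasmacytoid dendritic cell markers, and 1 of 3 adipocyte markers was lower; the part of these in the members' values was not tested. The members' calls rest on single arrays. Without mild replicate 2 or moderate replicate 2 limma called 0 members (11 and 10 at an unadjusted p under 0.05), and without mild replicate 3 it called 11. Without mild replicate 1 or moderate replicate 1 the count was 3. Fitted on the groups compared alone it was 0, with 19 at an unadjusted p under 0.05.

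In severe against mild 8 members were called higher and 0 lower, beside 6.14% and 6.13% of all genes (0 members lower at an unadjusted p under 0.05): Cxcl9 (1.53 ± 0.35 (SE, adjusted p = 0.0145)), Rsad2 (1.28), Gbp2 (0.97), Parp9 (0.88), Iigp1 (0.76), Ifit3 (0.70), Parp14 (0.61) and Irf1 (0.45). In the same comparison 2 of 6 neutrophil, 2 of 6 synovial fibroblast and 2 of 5 endothelial markers were called higher. So was 1 of 7 tested T and NK cell markers. Of the macrophage markers 0 of 11 were called (0 higher and 1 lower at an unadjusted p under 0.05), and 1 of 3 adipocyte markers was lower. Without mild replicate 2 the members' count was 1, and without severe replicate 1 or 3 it was 0 (13 and 16 at an unadjusted p under 0.05). Without severe replicate 2 it was 13. It was 3 without mild replicate 1 and 5 without naive replicate 2 or 3, no-swelling replicate 1 or moderate replicate 1. No member kept its call in severe or moderate against mild when each array was left out in turn, while 24 of 27 did in severe and 22 of 30 in moderate against naive.

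The spread within groups was shared by many members. Over the 35 tested members, moderate replicate 2 was the highest of its group for 30 and moderate replicate 3 the lowest for 28. Mild replicate 2 was the lowest for 27, severe replicate 2 the lowest for 28 and naive replicate 1 the highest for 28. The mean log2(signal + 16) over the members was 7.11, 6.85 and 6.83 on the naive, 6.95, 7.0 and 6.76 on the no-swelling, 7.57, 7.18 and 7.63 on the mild, 8.11, 8.44 and 7.71 on the moderate and 8.20, 7.79 and 8.11 on the severe arrays. Every array of moderate and severe swelling thus lay above every other array, the lowest of them by little over mild replicate 3.

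As a description, the median correlation between pairs of tested members over the 15 arrays was 0.762, and 0.491 once group means were removed. Among the 3 IFIT genes, Rsad2, Mx1, Oasl2, Irf7 and Usp18, a set chosen after the values were seen, it was 0.917 and 0.855. For the 3 IFITM genes it was 0.972 and 0.627, and for the 6 GTPases 0.388 and 0.413. All points share arrays and scaling, so these values also hold what an array does to every gene. The genes outside the list with the highest correlation with the members' mean were Ly6e (0.985), Tgoln1 (0.980), Acp5 (0.979), Samd9l (0.978) and Mmp12 (0.976), over the same 15 arrays.

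Another 15 probe sets are annotated to 12 of the members. In severe against naive 10 of them were called higher, 1 lower and 4 not called. The one called lower belongs to Gbp6 (-0.54, adjusted p = 0.0381). For Cxcl9 and Xaf1 the only other probe set was near 0 (0.19 and 0.01, neither called) although the one used was called higher, so for these genes the result rests on the probe set with the highest mean. In mild against naive that other probe set of Xaf1 was called lower (-0.81, adjusted p = 0.00248). Ifi35 has 2 other probe sets, 1 near 0 (-0.09, not called) and 1 called higher (0.76, adjusted p = 0.00099). In moderate and severe against mild the other probe set of Gbp2 was not called (1.09 and 0.77, adjusted p = 0.0635 and 0.143). Nor was that of Cxcl9 (0.08 and 0.42). In moderate against mild 1 other probe set of Ddx58 and 1 of Ifi35 were called higher (adjusted p = 0.0469 and 0.0317), unlike those used.

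The genes that make, receive and pass on the signal were read from a separate list, of which 29 were analysed here and 24 tested. In severe against naive 15 were called higher and 4 lower, beside 32.3% and 22.9% of all genes, with a median over the 29 of 0.49, against 0.06 for all genes; the 4 lower are no more than the background share. Both chains of the type I receptor rose: Ifnar1 had 115, 99.2 and 112 on the naive, 136, 131 and 107 on the no-swelling, 211, 187 and 242 on the mild, 264, 317 and 304 on the moderate and 302, 259 and 348 on the severe arrays. Ifnar2 had 144, 143 and 108 on the naive, 176, 157 and 139 on the no-swelling, 261, 204 and 336 on the mild, 412, 452 and 367 on the moderate and 439.6, 355 and 503 on the severe arrays. For both, all arrays of swollen joints lay above all naive and no-swelling arrays, with rises in severe against naive of 1.35 ± 0.14 on the log2 scale (SE, adjusted p = 1.44e-06), for Ifnar1 and 1.60 ± 0.18 on the log2 scale (SE, adjusted p = 2.42e-06), for Ifnar2. The chains of the type II receptor moved in opposite directions, Ifngr1 by 1.47 and Ifngr2 by -1.10 (adjusted p = 2.5e-06 and 5.84e-06). The other genes called lower were Jak1, a kinase of both receptors, Irf2, an antagonist of Irf1, and Mavs, the adaptor of Ddx58 and Ifih1. The 4 were named because they moved against their list, after their values were seen.

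Socs3, a feedback inhibitor of cytokine receptors, had 134, 162 and 128 on the naive, 1704, 1147 and 1096 on the no-swelling, 2514, 2462 and 2795 on the mild, 1954, 2132 and 1540.0 on the moderate and 2011, 1522 and 2784 on the severe arrays. It was already far above naive in joints without swelling, by 3.06 ± 0.20 on the log2 scale (SE, adjusted p = 9.04e-07), and by 3.71 ± 0.20 on the log2 scale (SE, adjusted p = 1.47e-08), in severe swelling. Of the interferons themselves, Ifnb1 passed the signal filter and Ifng did not. Ifnb1 had 37.7, 35.3 and 36 on the naive, 25.6, 27.6 and 43.4 on the no-swelling, 23.8, 36.3 and 31.5 on the mild, 15.8, 32.1 and 24.6 on the moderate and 34.1, 21.4 and 41.8 on the severe arrays, with overlapping groups, and was not called in severe against naive (adjusted p = 0.64). Ifng had 10, 1.8 and 14.7 on the naive, 3.1, 8.4 and 4 on the no-swelling, 9, 2.7 and 4 on the mild, 0.7, 1 and 10 on the moderate and 2.3, 4.8 and 3.5 on the severe arrays. Of the 4 alpha interferon genes on the list, Ifna1 was tested and not called in severe against naive.

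A further list of 35 interferon-induced genes outside the 38, with 31 measured and 30 tested, gave 26 called higher and 0 lower in severe against naive, beside 32.3% and 22.9% of all genes (0 lower at an unadjusted p under 0.05), with a median over the 31 of 0.998. The lowest p-values there were those of Ifi47, Tap1 and Adar. Tap1, the peptide transporter of antigen presentation, had 31.1, 30.5 and 48 on the naive, 52.9, 61.4 and 39.3 on the no-swelling, 126, 91.7 and 158 on the mild, 166, 185 and 155 on the moderate and 218, 145 and 183 on the severe arrays, and rose by 1.91 ± 0.20 on the log2 scale (SE, adjusted p = 1.57e-06), in severe against naive. Adar, an RNA-editing enzyme, rose by 1.40 ± 0.15 on the log2 scale (SE, adjusted p = 2.21e-06). In no swelling against naive 3 were called higher and 0 lower, beside 1.52% and 1.76% of all genes, and Igtp's relative Irgm2 led with 2.21 ± 0.32 on the log2 scale (SE, adjusted p = 0.00171), on signals of 129, 105 and 115 on the naive, 617, 422 and 799 on the no-swelling, 458, 557 and 421 on the mild, 395, 288 and 188 on the moderate and 234, 115 and 344 on the severe arrays. All 3 no-swelling arrays of Irgm2 lay above all moderate, severe and naive arrays. Ifi47, a further GTPase of that family, had 65.7, 48 and 45.5 on the naive, 93.4, 126 and 91.5 on the no-swelling, 162, 131 and 169 on the mild, 161, 212 and 174 on the moderate and 194, 174 and 201 on the severe arrays. Its no-swelling arrays lay between the naive and the swollen ones, and the rise in no swelling of 0.79 ± 0.16 on the log2 scale (SE, adjusted p = 0.0158) was lost without naive replicate 2 or 3 (adjusted p = 0.0629 and 0.0905) and with scaling on the hybridization controls (0.869). The third was Nmi (0.57, adjusted p = 0.0461), a call lost without any naive array or without no-swelling replicate 1 or 2, mild replicate 1 or any moderate array (adjusted p = 0.0531 to 0.154). Igtp, Iigp1, Irgm2 and Ifi47 belong to 1 GTPase family, and their shared early values were noticed after the data were seen. Irgm1, of the same family, did not share them, with means of 202 ± 32.5 in no-swelling and 203.5 ± 27 in naive joints.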

How the data were processed

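Total RNA of 15 knee joint samples, 3 per group, was hybridized to Affymetrix arrays, 1 per sample. The deposited table gives linear intensity signals of 45101 probe sets; the submitters' processing notes name MAS5, without a version in the sources used here. The mean trimmed by 2% at both ends was 150 on every array. No gene was read from a control probe set. Of the probe sets, 34958 carry 1 gene symbol in the platform's annotation at GEO, which can be out of date, 932 several and 9211 none; each gene was read from its brightest probe set. Signals were taken as log2(signal + 16), kept where 3 or more arrays exceeded their 40th percentile, and fitted as group means over all 15 arrays with limma 3.58.1 in R 4.3.3 (lmFit, and eBayes with an intensity trend; 10 residual degrees of freedom). Calls are two-sided at a Benjamini-Hochberg adjusted p under 0.05 over 14314 genes. With 3 arrays against 3, the smallest exact permutation p is 0.1. The number of arrays limits the precision.

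The members, lists and tests were chosen with earlier results of these data known. Values on every array are given for the member with the lowest F-test p of each role group, for the 3 genes with the lowest p of each further list except Adar, and, chosen after their values were seen, for Igtp, Iigp1, Ifit1, Rsad2, Cxcl10, Mx2 and Irgm2, besides Ifnb1 and Ifng. As alternatives, the pseudocount was set to 1 or 64, the filter to none or the 60th percentile, and the scaling to quantiles, aligned medians or 9 hybridization controls; probe sets were averaged or tested singly, the trend was dropped, other groups were left out of the fit, a replicate block or array weights were added, and each array was left out. The steps were tested on simulated data. One gene of the signalling list is not reported here. Promoters are from RefSeq (GRCm38.p6).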

Additional observations from a re-analysis of the deposited data

How the results depend on the processing

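Each count of called members and the value of each called gene was recomputed under 13 other settings and without each of the 15 arrays. No member's call changed direction under any of them. Of the called genes' values not from leaving out an array, 1701 of 1836 kept their call, 134 lost it and 1 reversed: Tyk2 in severe against naive was -0.27 (not called) with the mean of probe sets. In no swelling against naive 1 member was called. The count was 0 with scaling on hybridization controls (limma; 2 higher and 1 lower at an unadjusted p under 0.05) and 2 with medians aligned, with the mean of probe sets and with array weights, the added member being Iigp1; leaving out an array gave 1 to 2. In mild against naive the count of 9 became 23 with hybridization controls and 24 with array weights (22 higher, 2 lower, Gbp6 and Oas2), and 7 to 15 without an array. In mild against no swelling 12 became 27 and 22 under the same settings, and 10 to 18 without an array. In severe against mild 8 became 4 with no filter, 2 with medians aligned, 4 with hybridization controls, 3 without the trend, 1 with only the groups compared, 3 with the replicate block and 22 with array weights (21 higher, 1 lower), and 0 to 13 without an array. In moderate against mild 6 became 0 with only the groups compared and 17 with array weights, and 0 to 11 without an array. Except as given next, these counts stand without the share of all genes called in the same setting. They do not show by themselves whether the members or all genes moved. The cause of these changes was not tested. Array weights called 64.9% of all genes in mild against naive, against 40.1% with equal weights. With hybridization controls 82.8% of all genes had a difference above 0 in mild against naive, against 50.6% with the scaling used. In mild against no swelling it was 88.9%, against 54.5%.

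Scaling on hybridization controls moved the median of all genes to 0.46 in mild, 0.31 in moderate and 0.40 in severe against naive, and to 0.58 in mild against no swelling; the members' medians lay 0.47, 1.20, 1.04 and 0.54 above it (0.93, 1.51, 1.44 and 1.11 before that shift was taken off). With a pseudocount of 1 the members' median in moderate against naive was 1.37; with 64 it was 0.79 in moderate and 0.71 in severe against naive. Without moderate replicate 3 it was 1.39 in moderate against naive, and in no swelling against naive it was -0.13 to 0.020 without an array, above 0 without no-swelling replicate 3. Replicate numbers gave no sign of a pairing of the samples, though this check cannot exclude one. Over 30 pairs of arrays with the same number, deviations from the group means correlated at -0.506 to 0.334, over 0.1 in 5. The block with the replicate number left the other counts within 1.5 times.

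The main limits are 3 arrays a group, one annotation of the probe sets, dim genes such as Cxcl9, Oas3 and Mx1, and whole tissue of changing cell composition.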
